A study of Mus musculus with 20 samples.

Results

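Oxidative phosphorylation (OXPHOS) subunits make up complexes I to V of the inner mitochondrial membrane, and their messages come partly from nuclear chromosomes and partly from the mitochondrial genome. Members were the protein-coding entries whose mouse symbols name such a subunit (the Nduf, Sdh, Uqcr, Cyc1, Cox and Atp5 genes of the nucleus and the mt- genes of the mitochondrion). A member also needed a mean of at least 3 CPM, its counts scaled to the library total, over the 20 libraries. Of 103 entries with such names, 95 were members, 82 nuclear and 13 mitochondrial, among 78409 entries listed and 10640 that reached the same mean. Complex I had 36 nuclear and 7 mitochondrial members, complex III 9 and 1, complex IV 14 and 3, and complex V 19 and 2, while the 4 members of complex II were all nuclear. Ndufa4 was counted with complex IV, and Atp5po was listed under 2 identifiers. The 8 entries below the limit were Cox7a1 at 2.58 CPM, Ndufa4l2 at 0.075, Cox6b2 at 0.017, and Cox4i2, Cox7b2, Cox8b, Cox8c and Ndufb11b at 0 in all 20 libraries. Cox7a1 lay just outside the limit and Cox6a2, at 3.31 CPM, just inside it.

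The libraries came from wild-type C57BL/6J bone marrow-derived macrophages of female mice, grown with L929-conditioned medium and treated on day 7 of culture in Opti-MEM without serum. Treatments were fractions of airway fluid from mice with ovalbumin-induced airway inflammation, kept for 5 days before use. RNY1+/+ EVFx and RNY1-/- EVFx were vesicle-enriched fractions at 35000000 particles per µL. RNY1+/+ ProteinFx and RNY1-/- ProteinFx were protein-enriched fractions at 0.75 µg per µL, and PBS was the control. The units of these doses differ, so fraction and dose cannot be told apart in comparisons of ProteinFx with EVFx. The genotype is that of the mice that gave the fluid, with or without a CRISPR deletion of the Y RNA gene Rny1, and the macrophages of all 5 groups carried the wild-type gene. Each group had 4 libraries of 3′ RNA sequencing with molecular identifiers, and the library names of all groups share a prefix. The labels give neither the length of treatment nor whether the 4 libraries of a group are separate cultures or fluid pools, so each p-value measures the spread between these samples.

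Complex I (NADH dehydrogenase), complex III (cytochrome bc1) and complex IV (cytochrome c oxidase) pump protons as electrons pass to oxygen, complex II (succinate dehydrogenase) feeds electrons in from the tricarboxylic acid cycle, and complex V (ATP synthase) uses the gradient to make ATP. Every complex except II joins subunits imported from the cytosol with subunits made on mitochondrial ribosomes, so the output of both genomes has to be matched. In macrophages, inflammatory activation is known to shift energy metabolism from OXPHOS toward glycolysis, with itaconate made by Acod1 slowing succinate dehydrogenase.

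Total counts ranged from 2510005 (RNY1-/- ProteinFx replicate 3) to 8277366 (RNY1+/+ EVFx replicate 4) per library. PBS replicate 3 was the lowest PBS library for 60 of the 82 nuclear members and the highest for 10 of the 13 mitochondrial members. By Dixon's ratio, which sets a gap against the range, it was far from the other PBS libraries for Ndufb1 and Ndufs1 alone. It was not so for the summed shares of members or their ratio. RNY1+/+ ProteinFx replicate 4 was the lowest of its group for 68 of 82 nuclear members. In RNY1-/- ProteinFx, replicate 3 was lowest for 40 and replicate 4 for 25 nuclear members. In each group, replicate 3 was the highest for 9 or more of the 13 mitochondrial members. All 10 macrophage markers, led by Ctss with a mean of 5946 CPM, were present, with summed levels of 16719, 13425, 14440, 18295 and 20057 CPM in PBS, RNY1+/+ EVFx, RNY1-/- EVFx, RNY1+/+ ProteinFx and RNY1-/- ProteinFx. Of 10 neutrophil markers, 4 exceeded 3 CPM, with sums of 346, 180, 243, 299 and 350 CPM in the same order. S100a8, at a mean of 152 CPM, was the most abundant, and Ly6g stayed at or below 0.191 CPM in every library. Sums for 7 eosinophil markers were 9.30, 1.21, 1.73, 16.99 and 14.7 CPM, nearly all Ccr3 (mean 7.93 CPM), with Epx and Il5ra at 0. Fibroblast markers, led by Col1a2 at a mean of 12.6 CPM, summed to 34.8, 27.6, 16.8, 24.9 and 22.1 CPM. T cell (top gene Cd4), B cell (Cd79b), lung epithelium (Epcam) and dendritic cell (Ccr7) markers stayed at or below 9.22 CPM in sum in every library, with Scgb3a2, Sftpc and Sftpb at 0. The part of these other cell types and of the libraries often lowest or highest in the results was not tested. The exception is where a value without a library is given.

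Messages of both genomes took a smaller share of the library after treatment. Mitochondrial members held 1.63%, 1.84%, 2.33% and 2.00% of all counts in PBS replicates 1 to 4, against 0.980%, 1.07%, 1.26% and 1.17% with RNY1+/+ EVFx. The shares were 1.25%, 1.12%, 1.45% and 1.30% with RNY1-/- EVFx, and 1.31%, 1.13%, 1.52% and 1.44% with RNY1+/+ ProteinFx. All 12 of these libraries lay below every PBS library. The shares with RNY1-/- ProteinFx were 1.17%, 1.35%, 1.78% and 1.72%, so that replicates 3 and 4 fell inside the PBS range. Each RNY1-/- ProteinFx library lay below the PBS library of the same replicate number, although the labels do not say that numbers pair the libraries. Nuclear members held 1.46%, 1.43%, 1.24% and 1.38% in PBS, 1.14%, 1.13%, 1.16% and 1.13% with RNY1+/+ EVFx, and 1.11%, 1.07%, 1.14% and 1.09% with RNY1-/- EVFx. They held 1.12%, 1.07%, 1.103% and 0.929% with RNY1+/+ ProteinFx and 1.26%, 1.29%, 1.15% and 1.14% with RNY1-/- ProteinFx. Only RNY1-/- ProteinFx replicates 1 and 2 overlapped PBS in the nuclear share, and they did so through PBS replicate 3 alone. The 95% Wilson interval of each share was at most 0.0327 percentage points wide, which covers counting error only. Fewer mitochondria or cells and less RNA per cell cannot be told apart in such shares.

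**Figure D1:**
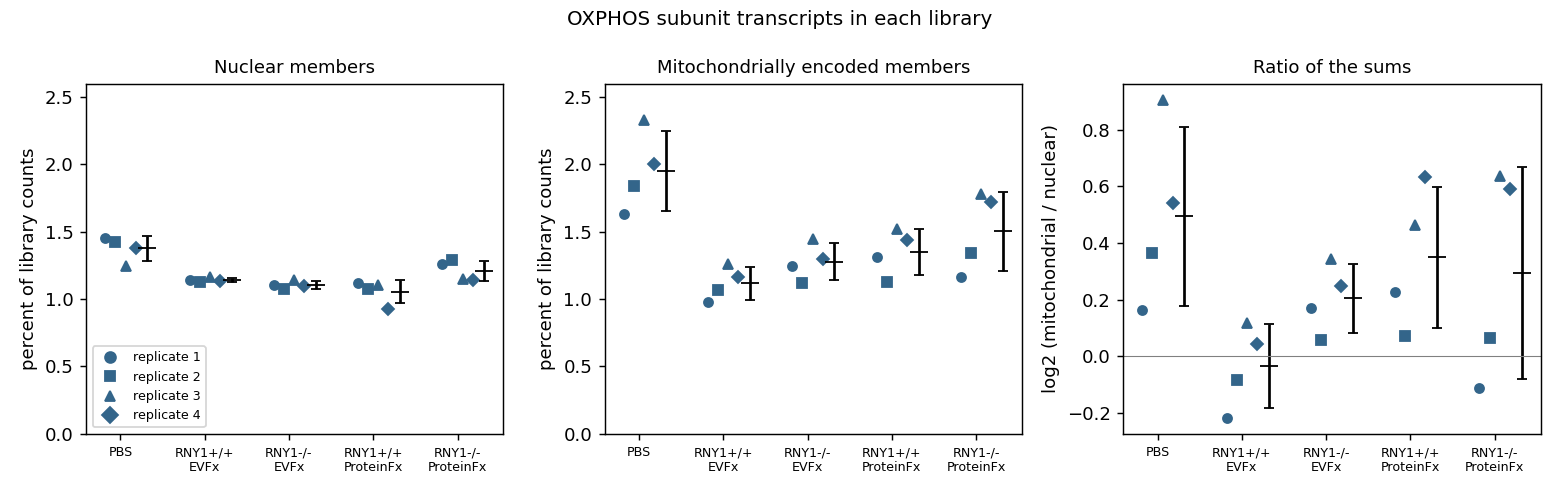
Percent of each library's counts in nuclear members and in mitochondrial members, and the log2 ratio of mitochondrial to nuclear counts, by treatment group; symbols are libraries with a shape per replicate number, and bars are the mean and SD (n = 4). The mitochondrial share is 1.63% to 2.33% in PBS and 0.980% to 1.26% with RNY1+/+ EVFx, and the ratio lies lowest with RNY1+/+ EVFx.

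In counts as deposited, the balance between the genomes, as a ratio of summed counts, differed from PBS without overlap only with RNY1+/+ EVFx. Another measure is the mitochondrial minus the nuclear median log2 fold change. With length and GC trends removed, it was smallest in size for this contrast (-0.48, against -0.53, -0.61 and -0.75). The log2 ratio of mitochondrial to nuclear counts was 0.16, 0.37, 0.91 and 0.54 in PBS replicates 1 to 4 and -0.22, -0.08, 0.12 and 0.04 with RNY1+/+ EVFx, and these groups did not overlap. It was 0.17, 0.06, 0.35 and 0.25 with RNY1-/- EVFx, 0.23, 0.07, 0.46 and 0.63 with RNY1+/+ ProteinFx, and -0.11, 0.06, 0.64 and 0.59 with RNY1-/- ProteinFx, all of which overlapped PBS. Replicates 3 and 4 lay above replicates 1 and 2 in every group, which the labels do not account for. The spread within PBS (SD 0.32) and within RNY1-/- ProteinFx (SD 0.38) was as large as most differences between group means. Within each replicate number the ratio was lowest with RNY1+/+ EVFx, although the labels do not say that numbers pair the libraries. Reads from mitochondrial ribosomal RNA, a separate product of the same genome, held 4.53% ± 0.598 of counts in PBS (SD, n = 4), 3.29% ± 0.564 with RNY1+/+ EVFx, 4.49% ± 0.407 with RNY1-/- EVFx, 3.78% ± 0.373 with RNY1+/+ ProteinFx and 3.91% ± 0.311 with RNY1-/- ProteinFx.

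The comparison of RNY1+/+ EVFx with PBS asks how macrophages respond to the vesicle-enriched fraction of inflamed airway fluid. Called members have a Benjamini-Hochberg adjusted p under 0.05 in edgeR's quasi-likelihood test over all genes, with scaling by the trimmed mean of M values (TMM). Mitochondrial members fell almost as a block, while the nuclear members moved in a minority. Of 81 nuclear members tested, 3 rose, where 21.7% of all genes rose, and 25 fell, where 22.8% of all genes fell. Of 13 mitochondrial members 12 fell and 0 rose, 12 had an unadjusted p under 0.05 and DESeq2 called 12. The median log2 fold change was -0.24 over nuclear and -0.77 over mitochondrial members, against -0.03 over all genes. With a log2 fold change above 1 in size as a further limit, passed by 16.4% of all genes, 3 nuclear and 3 mitochondrial members were called. Of these, 1 nuclear member was higher, and 2 nuclear and 3 mitochondrial members were lower. Of 10797 genes, 890 passed this limit higher and 885 lower. Without PBS replicate 3, 6 nuclear members rose and 50 fell, where 27.3% of all genes rose and 28.9% fell, and the mitochondrial median stayed lower than the nuclear one, by -0.30 in place of -0.54 on the log2 scale. Scaling to library totals moved the median of all genes by -0.18, and with it 1 nuclear member rose and 49 fell, against 15.3% and 32.4% of all genes.

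RNY1-/- EVFx against PBS, which shares its controls with the other comparisons to PBS, asks for the response to vesicles from mice without Rny1. Of 81 nuclear members tested, 12 rose against 27.7% of all genes, and 49 fell against 30.7% of all genes. Among the 13 mitochondrial members 7 fell and 0 rose, 8 had an unadjusted p under 0.05, and DESeq2 called 7. The medians were -0.47 for nuclear and -0.52 for mitochondrial members, and -0.03 over all genes. The stricter call, passed by 22.5% of all genes, held 1 nuclear member higher (Cox5a), 13 nuclear members lower and 2 mitochondrial members lower. Of 10730 genes, 967 passed it higher and 1449 lower. The mitochondrial median minus the nuclear one was -0.05, and 0.21 without PBS replicate 3. With library totals the median of all genes moved by -0.24, and 17.8% of all genes rose and 42.4% fell.

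RNY1+/+ ProteinFx against PBS asks the same of the protein-enriched fraction. It had the largest number of nuclear falls among the comparisons with PBS, 54 of 82 against 29.3% of all genes, with 7 rises against 25.9% of all genes. Of 13 mitochondrial members 7 fell and 0 rose, 7 had an unadjusted p under 0.05, and DESeq2 called 6. Without RNY1+/+ ProteinFx replicate 1, 4 mitochondrial members were called, and likewise 4 without replicate 2, with 46.9% and 47.7% of all genes called. The medians were -0.49 for nuclear and -0.46 for mitochondrial members, and the difference moved from 0.03 to 0.30 without PBS replicate 3. The stricter call, passed by 21.3% of all genes in either direction, held 17 nuclear members and 1 mitochondrial member, all lower. Of 10834 genes, 1342 passed it lower. With library totals the median of all genes moved by -0.17, and 18.2% of all genes rose and 37.8% fell.

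RNY1-/- ProteinFx against PBS gave counts that depended strongly on the setting. Of 82 nuclear members, 7 rose against 16.7% of all genes and 33 fell against 19% of all genes. Among the 13 mitochondrial members 5 fell and 0 rose, 6 had an unadjusted p under 0.05, and DESeq2 called 4. The medians were -0.35 and -0.37, with a difference of -0.02 that became 0.24 without PBS replicate 3. The stricter call, passed by 14.3% of all genes in either direction, held 8 nuclear members, all lower, and no mitochondrial member. Of 10856 genes, 867 passed it lower. A replicate block gave 62 nuclear and 10 mitochondrial members, with 60.9% of all genes called in place of 35.7%, and 13 mitochondrial members were called with length and GC trends removed, with 36.9% of all genes. The 40 nuclear members called became 20 without PBS replicate 1, 23 without PBS replicate 2, 24 without RNY1-/- ProteinFx replicate 3 and 18 without its replicate 4, with 23.3%, 22.5%, 26% and 22.3% of all genes called.

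The difference between the genomes was also taken with trends in length and GC content removed together, and the part of each was not tested. Transcripts of mitochondrial members have a median GC content of 37.1%, against 51.6% for nuclear members and 49.6% for all entries that reached the mean, and median lengths of 784, 601 and 1276 bases. These values were found for 100%, 100% and 96.8% of the 3 sets in a GENCODE annotation. With trends in length and GC content removed from each library, the nuclear medians against PBS were -0.16 with RNY1+/+ EVFx, -0.18 with RNY1-/- EVFx, -0.24 with RNY1+/+ ProteinFx and -0.07 with RNY1-/- ProteinFx. The mitochondrial medians were -0.64, -0.70, -0.85 and -0.82 in the same order, with 11, 11, 12 and 13 of 13 members lower. The mitochondrial members thus lay below the nuclear ones by -0.48, -0.53, -0.61 and -0.75 after this correction, where without it they did so clearly with RNY1+/+ EVFx alone. Falls and rises of nuclear members were 31 and 5 with RNY1+/+ EVFx, 36 and 12 with RNY1-/- EVFx, 38 and 11 with RNY1+/+ ProteinFx, and 24 and 10 with RNY1-/- ProteinFx. Over all genes in the same fits they were 2946 and 2544 of 10472, 3178 and 2802 of 10392, 3124 and 2409 of 10482, and 2109 and 1767 of 10511. The correction describes trends over all genes and does not show which scale is nearer to RNA per cell.

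**Figure D2:**
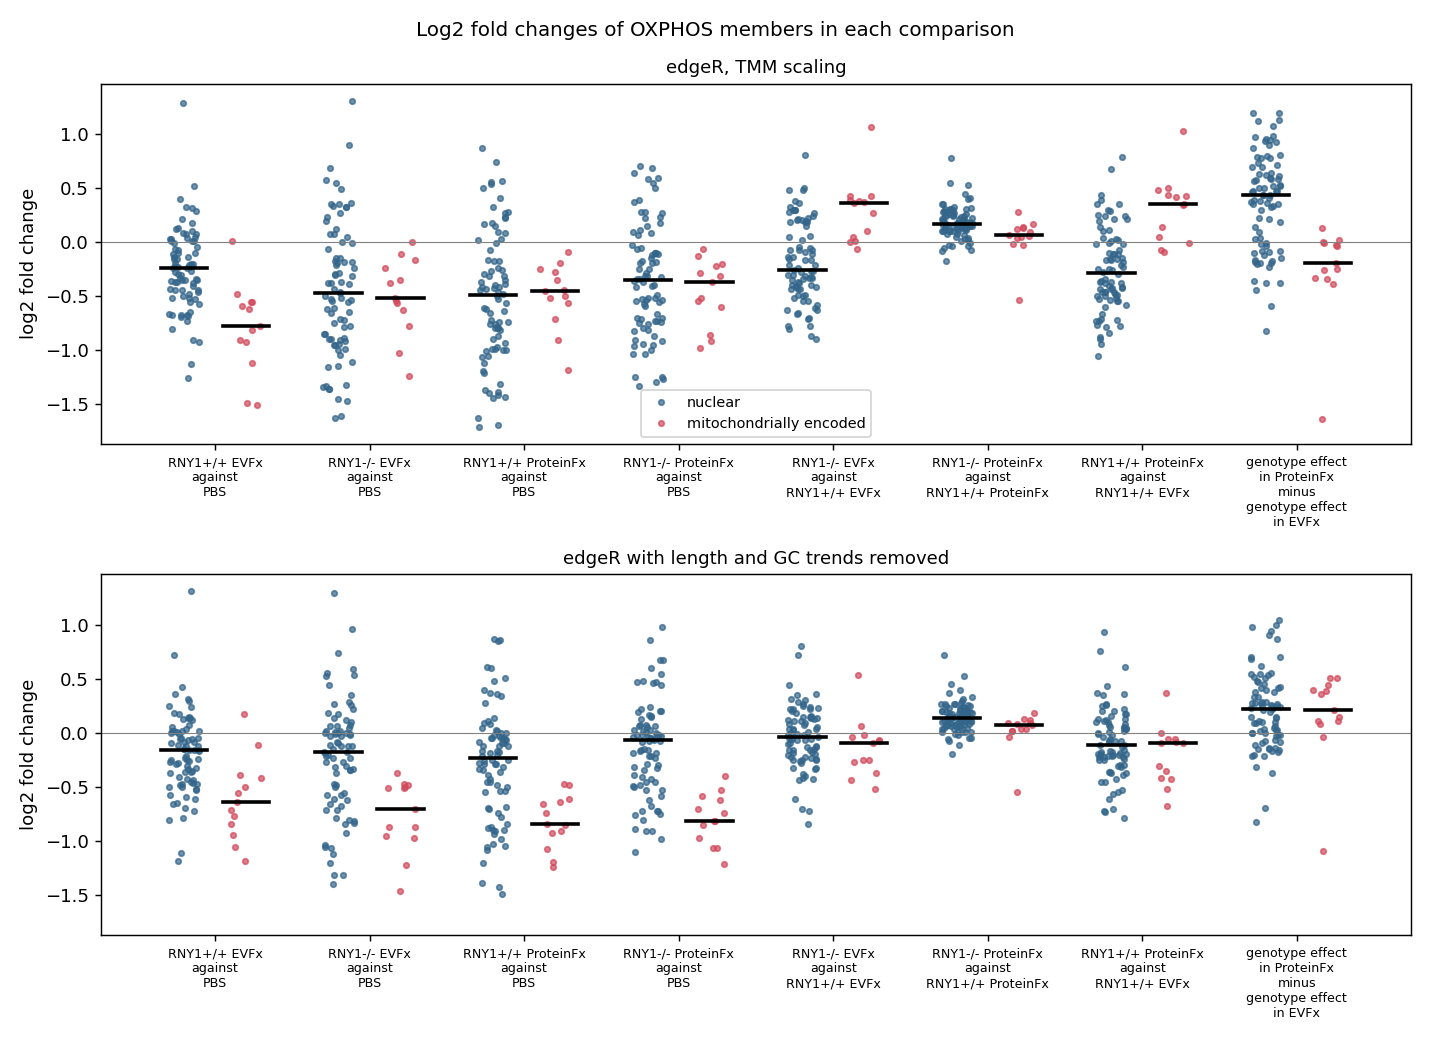
Log2 fold changes of nuclear and mitochondrial members in each comparison, 1 point per member, with TMM scaling (upper panel) and with trends in length and GC content removed (lower panel); the black line is the median. The medians of both sets lie below 0 against PBS in both panels, while the mitochondrial medians of 0.37 for RNY1-/- against RNY1+/+ EVFx and 0.35 for RNY1+/+ ProteinFx against RNY1+/+ EVFx turn to -0.09 and -0.10 in the lower panel.

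Counts per complex were not tested against the shares of all genes, which against PBS were 22.8%, 30.7%, 29.3% and 19% lower and 21.7%, 27.7%, 25.9% and 16.7% higher with RNY1+/+ EVFx, RNY1-/- EVFx, RNY1+/+ ProteinFx and RNY1-/- ProteinFx. Complex I holds the largest number of nuclear members, and falls outnumbered rises among them against PBS in all 4 comparisons. Against PBS, 15 of its 36 nuclear members fell and 1 rose with RNY1+/+ EVFx, 25 fell and 4 rose with RNY1-/- EVFx, 28 fell and 2 rose with RNY1+/+ ProteinFx, and 16 fell and 3 rose with RNY1-/- ProteinFx. Ndufb11 (ENSMUSG00000031059), an accessory subunit of the membrane arm, was at 121, 132, 68.4 and 123 CPM in PBS and at 44.0, 43.5, 42.2 and 50.7 CPM with RNY1+/+ EVFx. It was at 28.4, 32.3, 34.2 and 27.7 CPM with RNY1-/- EVFx, at 34.1, 26.9, 35.7 and 24.3 CPM with RNY1+/+ ProteinFx and at 57.0, 56.2, 28.7 and 30.2 CPM with RNY1-/- ProteinFx. All 16 treated libraries lay below every PBS library, PBS replicate 3 included. The log2 fold changes were -1.13 (SE 0.18, adjusted p = 0.00048) with RNY1+/+ EVFx and -1.63 (SE 0.19, adjusted p = 3.4e-05) with RNY1-/- EVFx. With the ProteinFx they were -1.72 (SE 0.21, adjusted p = 4.1e-05) for RNY1+/+ and -1.30 (SE 0.26, adjusted p = 0.0043) for RNY1-/-. Each was also called with length and GC trends removed, at -1.12, -1.40, -1.49 and -1.104.

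Ndufv3 (ENSMUSG00000024038), a small accessory subunit of the NADH-oxidising module, was at 158, 145, 84.9 and 122 CPM in PBS and at 51.5, 42.7, 46.3 and 48.7 CPM with RNY1+/+ EVFx. With RNY1-/- EVFx it was at 35.5, 32.9, 36.7 and 36.5 CPM, with RNY1+/+ ProteinFx at 40.8, 36.5, 36.9 and 26.9 CPM, and with RNY1-/- ProteinFx at 80.9, 78.9, 43.8 and 49.8 CPM. Again no treated library reached the lowest PBS library, and RNY1-/- ProteinFx replicates 1 and 2 were the closest to it. The log2 fold changes against PBS were -1.26 (SE 0.17, adjusted p = 0.00015), -1.61 (SE 0.18, adjusted p = 2.2e-05), -1.69 (SE 0.19, adjusted p = 2.8e-05) and -0.94 (SE 0.23, adjusted p = 0.011) in the order of groups above. Ndufb8, another membrane-arm subunit, fell by 0.93, 1.34, 1.31 and 1.03 on the log2 scale, with 4 of 4 libraries of each group below every PBS library. Ndufs8, which holds iron-sulfur clusters of the electron path, had log2 fold changes of -1.15 with RNY1-/- EVFx, -1.41 with RNY1+/+ ProteinFx and -1.25 with RNY1-/- ProteinFx. Its value of -0.52 with RNY1+/+ EVFx was not called, and was -0.71 and called without PBS replicate 3.

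A few complex I messages went the other way. Ndufb1 (ENSMUSG00000113902) was at 307, 313, 409.9 and 325 CPM in PBS and at 466, 413, 486 and 480.3 CPM with RNY1-/- EVFx, above every PBS library in all 4. It rose by 0.69 (SE 0.12, adjusted p = 0.0006) there, by 0.56 with RNY1+/+ ProteinFx and by 0.59 with RNY1-/- ProteinFx, and had 0.22 with RNY1+/+ EVFx, which was called only without PBS replicate 3, at 0.32. Ndufc2 rose by 0.28, 0.49, 0.27 and 0.39 in the 4 comparisons. Its calls with RNY1+/+ EVFx were lost without PBS replicate 1 or 2 (0.27 each) or without RNY1+/+ EVFx replicate 2 (0.30) or 3 (0.24), and library totals left it without a call there (0.10) and with RNY1-/- EVFx (0.24) and RNY1+/+ ProteinFx (0.10). With RNY1+/+ ProteinFx its call was lost without PBS replicate 1 (0.25), 2 (0.25) or 4 (0.27) or without replicate 1 (0.26) or 2 (0.25) of that group. For RNY1-/- ProteinFx it was lost without PBS replicate 1 (0.38), 2 (0.36) or 4 (0.40) or without replicate 3 (0.31) or 4 (0.37) of that group.

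Of the 4 members of complex II, all nuclear, edgeR called 0 against PBS with RNY1+/+ EVFx, where 0 had an unadjusted p under 0.05 and DESeq2 called 0. With RNY1-/- EVFx 2 rose and 1 fell, with RNY1+/+ ProteinFx 1 rose and 1 fell, and with RNY1-/- ProteinFx 1 rose. Sdha (ENSMUSG00000021577), the flavoprotein that oxidises succinate, was at 122, 129.9, 149 and 125 CPM in PBS and at 181, 168, 169 and 190.1 CPM with RNY1-/- ProteinFx, all 4 above PBS. It rose there by 0.50 (SE 0.11, adjusted p = 0.0065), and by 0.33 with RNY1-/- EVFx and 0.41 with RNY1+/+ ProteinFx, where the groups overlapped PBS and library totals gave 0.09 and 0.24 without a call. Sdhb, the iron-sulfur subunit, had log2 fold changes between -0.03 and 0.17 against PBS, not called. Sdhc, a membrane anchor, fell by 0.52 with RNY1-/- EVFx and by 0.49 with RNY1+/+ ProteinFx, 4 of 4 libraries below every PBS library in each, but had -0.18 and -0.13, not called, with length and GC trends removed.

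Sdhd (ENSMUSG00000000171), the other membrane anchor, separated RNY1+/+ EVFx from the remaining treatments. It was at 34.8, 42.5, 73.6 and 40.9 CPM in PBS, 37.2, 39.8, 37.0 and 30.6 CPM with RNY1+/+ EVFx and 62.1, 46.5, 72.4 and 60.9 CPM with RNY1-/- EVFx. With RNY1+/+ ProteinFx it was at 52.3, 87.2, 58.8 and 53.6 CPM, and with RNY1-/- ProteinFx at 52.3, 48.1, 74.5 and 91.3 CPM. Every library of the last 3 groups lay above every RNY1+/+ EVFx library, while PBS replicate 3 lay among them. Against RNY1+/+ EVFx, the log2 fold change was 0.81 (SE 0.13, adjusted p = 0.00041) with RNY1-/- EVFx and 0.79 (SE 0.14, adjusted p = 0.00024) with RNY1+/+ ProteinFx. Both were called with length and GC trends removed, at 0.81 and 0.76.

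Complex III had nuclear members called in each direction, against 22.8%, 30.7%, 29.3% and 19% of all genes that fell and 21.7%, 27.7%, 25.9% and 16.7% that rose in the order below. Of its 9 nuclear members, 2 fell and 1 rose with RNY1+/+ EVFx, 4 fell and 2 rose with RNY1-/- EVFx, 5 fell and 1 rose with RNY1+/+ ProteinFx, and 4 fell and 1 rose with RNY1-/- ProteinFx. Uqcrc1 (ENSMUSG00000025651), a core protein facing the matrix, was at 64.1, 60.1, 26.3 and 44.0 CPM in PBS and at 18.8, 20.0, 21.7 and 14.1 CPM with RNY1-/- EVFx, below every PBS library in all 4. It fell there by 1.16 (SE 0.24, adjusted p = 0.002), by 1.12 with RNY1+/+ ProteinFx and by 1.00 with RNY1-/- ProteinFx, and its value of -0.35 with RNY1+/+ EVFx was called only without PBS replicate 3, at -0.55. Uqcrfs1 (ENSMUSG00000038462), the Rieske iron-sulfur protein, was at 92.0, 83.4, 113 and 89.3 CPM in PBS and at 117, 116, 158 and 153 CPM with RNY1-/- ProteinFx. The latter group did not overlap PBS, and the rise was 0.60 (SE 0.16, adjusted p = 0.018), with the call lost without PBS replicate 2 (0.52) or 4 (0.57) or RNY1-/- ProteinFx replicate 4 (0.52). Uqcrfs1 rose by 0.55 with RNY1-/- EVFx and by 0.50 with RNY1+/+ ProteinFx, and had 0.07, not called, with RNY1+/+ EVFx.

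Cox5a (ENSMUSG00000000088), a subunit of cytochrome c oxidase that faces the matrix, gave the largest called rise of any member against PBS in all 4 comparisons under TMM scaling. It was at 545, 541, 562 and 578 CPM in PBS, at 1249.6, 1232, 1149 and 1179.7 CPM with RNY1+/+ EVFx and at 1239.5, 1220.2, 1102 and 1096 CPM with RNY1-/- EVFx. With RNY1+/+ ProteinFx it was at 979.9, 906, 919.8 and 829.8 CPM, and with RNY1-/- ProteinFx at 959.5, 905, 740.2 and 817 CPM. All 16 treated libraries lay above every PBS library, both EVFx groups lay above RNY1+/+ ProteinFx, and PBS replicate 3 was inside the range of its group. The log2 fold changes against PBS were 1.29 (SE 0.09, adjusted p = 6.6e-07), 1.30 (SE 0.09, adjusted p = 8.1e-07), 0.88 (SE 0.10, adjusted p = 2.1e-05) and 0.69 (SE 0.10, adjusted p = 0.00076) in the same order. With length and GC trends removed they were 1.32, 1.30, 0.86 and 0.67. The lower level with RNY1+/+ ProteinFx than with RNY1+/+ EVFx, -0.41 (SE 0.08, adjusted p = 0.00055), was also called.

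The other nuclear subunits of complex IV mostly fell or were not called. With Cox5a counted, 1 rose and 1 fell of 13 tested with RNY1+/+ EVFx, 2 and 7 of 13 with RNY1-/- EVFx, 1 and 8 of 14 with RNY1+/+ ProteinFx, and 1 and 4 of 14 with RNY1-/- ProteinFx. Cox4i1 (ENSMUSG00000031818), the subunit through which ATP is known to slow the enzyme, was at 374, 384, 138 and 249 CPM in PBS and at 93.5, 99.3, 98.5 and 87.5 CPM with RNY1-/- EVFx. PBS replicate 3 was far below the other PBS libraries, and still above all 4 treated ones. Cox4i1 fell by 1.36 (SE 0.26, adjusted p = 0.0011) there, by 1.44 with RNY1+/+ ProteinFx and by 1.33 with RNY1-/- ProteinFx, and had -0.70 with RNY1+/+ EVFx, called only without PBS replicate 3, at -0.93. Its hypoxia-linked isoform Cox4i2 was among the entries at 0. Cox6a1 fell by 0.54, 0.61 and 0.53 with RNY1-/- EVFx, RNY1+/+ ProteinFx and RNY1-/- ProteinFx, but had 0.18, 0.14 and 0.20, not called, with length and GC trends removed. The call with RNY1-/- ProteinFx was also lost without PBS replicate 1 (-0.45) or 2 (-0.48) or RNY1-/- ProteinFx replicate 3 (-0.49) or 4 (-0.45). Ndufa4, once assigned to complex I, had log2 fold changes of 0.01, 0.36, -0.01 and 0.11 against PBS, none called; that of RNY1-/- EVFx was called without PBS replicate 3 (0.47) or without RNY1-/- EVFx replicate 2 (0.46).

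**Figure D3:**
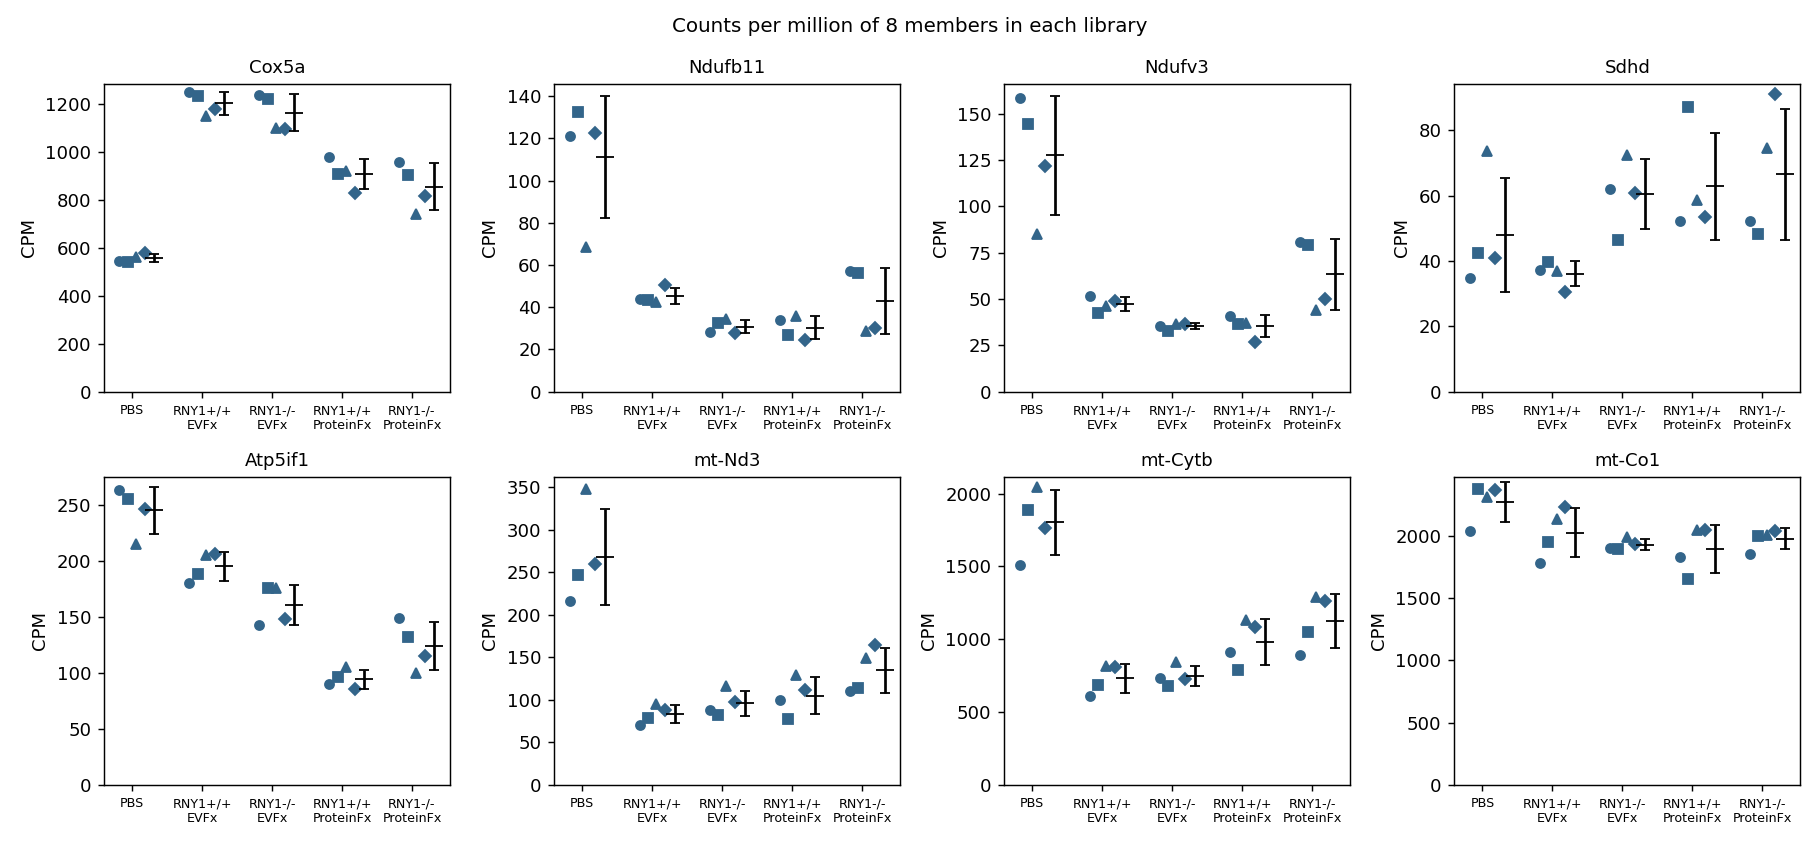
CPM of 8 members in each of the 20 libraries by treatment group, with the mean and SD (n = 4). Cox5a is above PBS in all 16 treated libraries, Ndufb11, Ndufv3 and mt-Nd3 are below PBS in all 16, and mt-Co1 overlaps PBS in 3 of the 4 treatments.

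Of the 19 nuclear members of complex V, 7 fell with RNY1+/+ EVFx, 12 fell and 2 rose with RNY1-/- EVFx, 12 fell and 2 rose with RNY1+/+ ProteinFx, and 9 fell and 1 rose with RNY1-/- ProteinFx. Atp5if1 (ENSMUSG00000054428), which blocks ATP hydrolysis by the enzyme, was at 263, 256, 216 and 246 CPM in PBS and at 180.4, 188, 205 and 207 CPM with RNY1+/+ EVFx. It was at 143, 176, 176 and 148 CPM with RNY1-/- EVFx, at 90.2, 96.1, 105 and 85.2 CPM with RNY1+/+ ProteinFx and at 149, 132, 99.6 and 115 CPM with RNY1-/- ProteinFx. All treated libraries lay below PBS, and every RNY1+/+ ProteinFx library lay below every EVFx library. Against PBS the fall was 1.22 (SE 0.11, adjusted p = 3.8e-06) with RNY1+/+ ProteinFx and 0.92 (SE 0.13, adjusted p = 0.00051) with RNY1-/- ProteinFx. With RNY1+/+ EVFx the value was -0.15, called only without PBS replicate 3, at -0.21. RNY1+/+ ProteinFx against RNY1+/+ EVFx gave -1.06 (SE 0.09, adjusted p = 1.1e-07), and -0.79 with length and GC trends removed, also called. With RNY1-/- EVFx Atp5if1 fell by 0.37, and had -0.03 without a call after the same correction.

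Among genes for the c ring, through which protons pass, Atp5mc2 fell by 1.47, 1.63 and 1.25 with RNY1-/- EVFx, RNY1+/+ ProteinFx and RNY1-/- ProteinFx, and of these 12 libraries RNY1-/- ProteinFx replicate 2 alone, at 13.8 CPM, was above the lowest PBS library (replicate 3, 12.4 CPM). Its fall of 0.69 with RNY1+/+ EVFx lost its call without any 1 of 7 libraries, PBS replicate 1 (-0.55), 2 (-0.54) or 4 (-0.73) and that group's replicate 1 (-0.69), 2 (-0.66), 3 (-0.64) or 4 (-0.75). Atp5mc1 fell by 1.36 with RNY1-/- EVFx, 4 of 4 libraries below every PBS library, and by 1.06 with RNY1+/+ ProteinFx, where PBS replicate 3 overlapped the treated group. Atp5mk, a small membrane subunit, went up instead, from 271, 252, 389.9 and 301 CPM in PBS to 472, 431, 510.3 and 498 CPM with RNY1-/- EVFx, a rise of 0.90 (SE 0.14, adjusted p = 0.00031) with no overlap. It rose by 0.74 with RNY1+/+ ProteinFx and 0.64 with RNY1-/- ProteinFx. The value of 0.40 with RNY1+/+ EVFx was called without PBS replicate 3 (0.54) or without RNY1+/+ EVFx replicate 4 (0.49). Several of these entries hold fractional counts from reads shared with related sequences, as did 60 of 82 nuclear and 13 of 13 mitochondrial members in at least 1 library.

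On the mitochondrial genome, mt-Nd3 (ENSMUSG00000064360), a membrane subunit of complex I, had the largest called mitochondrial fall with each treatment under TMM scaling. It was at 216, 247, 348 and 259 CPM in PBS, at 70.5, 78.5, 95.2 and 87.6 CPM with RNY1+/+ EVFx and at 87.7, 82.0, 116 and 97.1 CPM with RNY1-/- EVFx. With RNY1+/+ ProteinFx it was at 100.2, 77.5, 129 and 112 CPM, and with RNY1-/- ProteinFx at 111, 114, 149.5 and 164 CPM. All 16 treated libraries lay below the lowest PBS library. The log2 fold changes were -1.51 (SE 0.16, adjusted p = 1.6e-05), -1.25 (SE 0.16, adjusted p = 7.4e-05), -1.18 (SE 0.18, adjusted p = 0.00022) and -0.92 (SE 0.19, adjusted p = 0.0051) in the order of groups above. They were -0.95, -1.23, -1.25 and -1.06 with length and GC trends removed, each called. mt-Nd6 (ENSMUSG00000064368), the subunit on the other DNA strand, varied widely, with 15.4, 34.7, 49.9 and 15.6 CPM in PBS and 7.88, 9.61, 50.9 and 11.1 CPM with RNY1-/- EVFx. Its fall of 1.49 with RNY1+/+ EVFx (11.7, 8.63, 7.81 and 7.73 CPM) was called, and its value of -0.38 with RNY1-/- EVFx became -1.34 and was called without replicate 3 of that group.

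mt-Cytb (ENSMUSG00000064370), the only mitochondrial member of complex III, was at 1509, 1890.02, 2044 and 1766 CPM in PBS and at 611, 685, 818 and 810.1 CPM with RNY1+/+ EVFx. It was at 735, 682, 843 and 729 CPM with RNY1-/- EVFx, at 912, 787, 1130.4 and 1087 CPM with RNY1+/+ ProteinFx and at 895, 1049, 1291 and 1266 CPM with RNY1-/- ProteinFx. The 8 EVFx libraries all stayed at or below 843 CPM, and no treated library reached PBS. Log2 fold changes were -1.12 (SE 0.13, adjusted p = 4.0e-05), -1.03 (SE 0.12, adjusted p = 3.1e-05), -0.71 (SE 0.14, adjusted p = 0.0016) and -0.60 (SE 0.16, adjusted p = 0.016). mt-Co2, a catalytic subunit of complex IV, fell by 0.55, 0.63, 0.57 and 0.52 in the same order, with 4 of 4 libraries of each group below every PBS library. mt-Nd4l fell by 0.82, 0.77, 0.90 and 0.87, likewise with no overlap.

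mt-Co1 (ENSMUSG00000064351), the catalytic core of complex IV, did not share these falls under TMM scaling. It was at 2039, 2380.5, 2315 and 2368 CPM in PBS, 1785, 1954, 2138 and 2232 CPM with RNY1+/+ EVFx and 1901, 1892, 1992 and 1932 CPM with RNY1-/- EVFx. With RNY1+/+ ProteinFx it was at 1831, 1656, 2051 and 2046 CPM, and with RNY1-/- ProteinFx at 1854, 2000.01, 2011 and 2042 CPM. Treated libraries reached the PBS range in every group except RNY1-/- EVFx. The log2 fold changes were 0.01, 0.00, -0.09 and -0.13, none called, where length and GC trends removed gave -0.11 without a call and -0.48, -0.64 and -0.62 with calls. As a share of all counts of mitochondrial members, mt-Co1 held 11.8% ± 1.34 in PBS (SD, n = 4), 18.2% ± 0.915 with RNY1+/+ EVFx, 15.2% ± 1.30 with RNY1-/- EVFx, 14.1% ± 0.5002 with RNY1+/+ ProteinFx and 13.5% ± 2.24 with RNY1-/- ProteinFx. mt-Nd3 went the other way, from 1.36% ± 0.0875 in PBS to 0.740% ± 0.0158, 0.746% ± 0.0404, 0.769% ± 0.0657 and 0.897% ± 0.0620. The composition of the mitochondrial messages therefore differed between groups, whatever the scaling between the genomes.

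RNY1-/- against RNY1+/+ EVFx asks whether the genotype of the source of vesicles matters. Under TMM scaling the calls of nuclear members were mostly falls with the RNY1-/- fraction, and those of mitochondrial members, 6 of 13, were rises. Of 81 nuclear members tested 17 rose, against 25.5% of all genes, and 45 fell, against 26.6% of all genes. Of 13 mitochondrial members 6 rose and 0 fell, 7 had an unadjusted p under 0.05, and DESeq2 called 6. The medians were -0.26 and 0.37, with -0.00 over all genes. No member passed the stricter call, which 2.35% of all genes did. With length and GC trends removed, 15 nuclear members rose and 22 fell (1764 and 1676 of 10020 genes), while 0 mitochondrial members rose and 3 fell, with medians of -0.04 and -0.09, so the opposite movement of the genomes was absent on that scale. With all 20 libraries in 1 fit, 0 mitochondrial members were called, with 38.0% of all genes called in place of 52.1%. Without RNY1-/- EVFx replicate 3 the mitochondrial median was 0.18.

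Besides the rise of Sdhd, several nuclear members fell between the vesicle genotypes. Atp5mc1 was at 35.3, 33.9, 35.0 and 41.3 CPM with RNY1+/+ EVFx and at 16.4, 21.2, 17.6 and 19.5 CPM with RNY1-/- EVFx, a fall of 0.90 (SE 0.11, adjusted p = 0.0002) without overlap, and of 0.85 after the correction. Uqcrc1 fell by 0.81 (SE 0.14, adjusted p = 0.00058), and by 0.38 after it, with no overlap between groups. Cox8a, another small complex IV subunit, fell by 0.70 from 117, 122, 109 and 149 CPM to 73.3, 78.1, 72.7 and 67.9 CPM, and by 0.20 after the correction. Cox6a1 reversed, from -0.31 to 0.23, both called. Among mitochondrial members, mt-Nd4 and mt-Co3 rose by 0.43 each, mt-Nd1 by 0.39, mt-Atp6 by 0.38, and mt-Nd2 and mt-Nd5 by 0.37 each. After the correction mt-Nd4, mt-Nd1, mt-Atp6, mt-Nd2 and mt-Nd5 had values from -0.09 to -0.02, and mt-Co3 had 0.06, none called. The call of mt-Nd1 was lost without RNY1+/+ EVFx replicate 1 (0.31) or 2 (0.35) or RNY1-/- EVFx replicate 4 (0.34), and that of mt-Nd2 without RNY1+/+ EVFx replicate 1 (0.30) or 2 (0.30) or RNY1-/- EVFx replicate 3 (0.28) or 4 (0.33).

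RNY1+/+ ProteinFx against RNY1+/+ EVFx sets the fractions of airway fluid from RNY1+/+ mice side by side, at doses in unlike units. It shares the RNY1+/+ EVFx libraries with the comparison just described. Of 82 nuclear members 10 rose against 31.1% of all genes, and 47 fell against 32.2% of all genes. Among the 13 mitochondrial members 7 rose and 0 fell, 8 had an unadjusted p under 0.05, and DESeq2 called 7. The medians were -0.28 and 0.35, and -0.02 over all genes. Only Atp5if1 passed the stricter call, as 13.5% of all genes did in either direction. Of 10443 genes, 712 passed it lower, as Atp5if1 did. Again the mitochondrial rise was absent with length and GC trends removed, where 4 members fell and 0 rose and the medians were -0.11 and -0.10. Among nuclear members 24 fell and 12 rose there, where 2857 and 2680 of 10120 genes did. With all 20 libraries in 1 fit, 4 mitochondrial members were called, with 56.0% of all genes called in place of 63.3%. mt-Nd4 rose by 0.50 (SE 0.11, adjusted p = 0.0012), with every RNY1+/+ ProteinFx library above every RNY1+/+ EVFx library, and had -0.09 after the correction.

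RNY1-/- against RNY1+/+ ProteinFx asks the genotype question for the protein-enriched fraction, and here almost no member was called. Of 82 nuclear members 1 rose, against 2.2% of all genes, and 0 fell, against 3.37% of all genes, with 12 at an unadjusted p under 0.05 and 2 called by DESeq2. Over all genes, 2019 of 10472 had an unadjusted p under 0.05 and DESeq2 called 702. Of 13 mitochondrial members 0 were called by edgeR, 0 had an unadjusted p under 0.05, and DESeq2 called 0. The medians were 0.17 and 0.06, and 0.02 over all genes, and 74 of 82 nuclear values were above 0, where 5569 of 10472 genes were. No member passed the stricter call, which 1.82% of all genes did. The called member was Ndufv3, higher with RNY1-/- ProteinFx by 0.78 (SE 0.18, adjusted p = 0.026), with the lowest of the 4 libraries at 43.8 CPM and the highest RNY1+/+ ProteinFx library at 40.8 CPM. The call was lost without RNY1+/+ ProteinFx replicate 2 (0.79), 3 (0.79) or 4 (0.67) and without RNY1-/- ProteinFx replicate 1 (0.66) or 2 (0.67). Without RNY1-/- ProteinFx replicate 3, 3 nuclear members and 8.41% of all genes were called. Replicates 1 and 2 alone against RNY1+/+ ProteinFx gave 38 called nuclear and 2 called mitochondrial members and a difference of -0.56 between the medians, and replicates 3 and 4 alone gave 2, 4 and 0.28, where 27.7% and 8.35% of all genes were called. The log2 ratio of mitochondrial to nuclear counts already divided these replicates (-0.11 and 0.06 against 0.64 and 0.59), so the differences of medians restate it. With the same replicate numbers taken from RNY1+/+ ProteinFx as well, a comparison chosen after seeing the data, edgeR called no mitochondrial member in either pair, with 35 nuclear members and -0.34 for replicates 1 and 2 and 1 and 0.17 for replicates 3 and 4, where 27.6% and 7.32% of all genes were called.

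Whether the genotype effect itself differs between ProteinFx and EVFx was tested as an interaction over 16 libraries. Of 82 nuclear members, 43 had a higher value in ProteinFx than in EVFx, against 16.8% of all genes, and 5 a lower one, against 16.2% of all genes. Among the 13 mitochondrial members 0 were called in either direction, 0 had an unadjusted p under 0.05, and DESeq2 called 0. The medians of the interaction were 0.44 for nuclear and -0.20 for mitochondrial members, and 0.00 over all genes. The stricter call, passed by 7.79% of all genes in either direction, held 5 nuclear members, all higher. These were Atp5mc1, Atp5mc2, Atp5po (ENSMUSG00000116933), Ndufb10 and Ndufv3, at 1.08, 1.20, 1.19, 1.12 and 1.13. Of 10443 genes, 557 passed it higher. Library totals moved the median of all genes by 0.17, with 24.7% of all genes called higher and 8.84% lower. With length and GC trends removed, 19 nuclear members were called higher and 3 lower (1069 and 1108 of 10118 genes), 1 mitochondrial member (mt-Co2, 0.51) was called higher, and the medians were 0.22 and 0.21. Without RNY1-/- ProteinFx replicate 1, 29 nuclear members were called, and 27 without its replicate 2, with 20.6% and 18.4% of all genes called. All 20 libraries in 1 fit gave 22 nuclear members. With RNY1-/- ProteinFx replicates 3 and 4 alone 6 were called, and with replicates 3 and 4 of every group 0. In these fits 19.5%, 3.36% and 0.749% of all genes were called.

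Genes around the complexes gave no uniform picture. The shares of all genes that rose and fell against PBS were 21.7% and 22.8% with RNY1+/+ EVFx, 27.7% and 30.7% with RNY1-/- EVFx, 25.9% and 29.3% with RNY1+/+ ProteinFx, and 16.7% and 19% with RNY1-/- ProteinFx, and no list was tested against them. Leaving out 1 library also moved the share of all genes called with RNY1-/- ProteinFx, which was 35.7%. It was 23.3%, 22.5%, 52.9% and 26.7% without PBS replicates 1 to 4. Without RNY1-/- ProteinFx replicates 1 to 4 it was 32.9%, 33.0%, 26.0% and 22.3%. Of 50, 50, 49 and 50 assembly factors tested in the same order, 14 rose and 11 fell with RNY1+/+ EVFx, 10 and 15 with RNY1-/- EVFx, and 9 and 12 with RNY1+/+ ProteinFx, with medians of 0.15, 0.12 and -0.01. With RNY1-/- ProteinFx 5 rose and 7 fell, and the 12 called became 7 without PBS replicate 1 or 2 or RNY1-/- ProteinFx replicate 3, and 6 without its replicate 4. Cox18, which inserts the product of mt-Co2 into the membrane, rose by 1.62, 1.87, 1.66 and 1.33 with RNY1+/+ EVFx, RNY1-/- EVFx, RNY1+/+ ProteinFx and RNY1-/- ProteinFx. Higd2a, a factor for supercomplexes with complex IV, fell by 2.21, 2.03 and 1.48 with the last 3 of these. Of the tricarboxylic acid cycle genes, 9 of 17 rose and 3 fell with RNY1+/+ EVFx, 6 and 4 with RNY1-/- EVFx and 3 and 4 with RNY1+/+ ProteinFx. With RNY1-/- ProteinFx 2 rose and 2 fell, and the 4 called became 2 without PBS replicate 1 or 4 or RNY1-/- ProteinFx replicate 3 or 4, 1 without PBS replicate 2 and 7 without PBS replicate 3. Cs, citrate synthase, rose by 0.74 with RNY1+/+ EVFx, and Idh2 fell by 0.81 there and by 0.97 with RNY1-/- EVFx.

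Genes that serve the mitochondrial genome had calls in both directions. Of genes for mitochondrial DNA maintenance, transcription and RNA handling, 13 of 30 rose and 2 fell with RNY1-/- EVFx, where 27.7% of all genes rose. With RNY1+/+ ProteinFx 8 of 31 rose and 4 fell, a share of rises close to the 25.9% of all genes. With RNY1+/+ EVFx 8 of 31 were called, each higher, where 21.7% of all genes rose, and 5 were called without PBS replicate 2 or 4 or RNY1+/+ EVFx replicate 2 or 3. Without each of these libraries in turn, 39.8%, 38.0%, 36.2% and 38.5% of all genes were called, in place of 44.5%. Slirp, which binds and stabilises mitochondrial messages, rose by 1.15 and 1.59 with RNY1+/+ and RNY1-/- EVFx, and Pnpt1, part of the mitochondrial RNA degradosome, by 0.87, 1.21, 1.51 and 1.24 in the 4 comparisons. With RNY1-/- ProteinFx 5 of 30 rose, the share of all genes being 16.7%, and 3 fell, which became 4 called without PBS replicate 1 or 2 or RNY1-/- ProteinFx replicate 3, and 5 without PBS replicate 4 or RNY1-/- ProteinFx replicate 4. Mitochondrial ribosomal proteins had 17 rises and 12 falls of 78 with RNY1+/+ EVFx, 15 and 26 of 77 with RNY1-/- EVFx and 11 and 27 of 77 with RNY1+/+ ProteinFx, with medians of -0.02, -0.08 and -0.32. With RNY1-/- ProteinFx they had 9 and 12 of 77, and the 21 called became 12 without PBS replicate 1, 2 or 4 or RNY1-/- ProteinFx replicate 4, 13 without its replicate 3 and 32 without PBS replicate 3. Of the mitochondrial ribosomal RNAs, mt-Rnr1 fell by 0.39 with RNY1+/+ ProteinFx and by 0.45 with RNY1-/- ProteinFx. The first call was lost without PBS replicate 1 or 4 or RNY1+/+ ProteinFx replicate 1 or 3, and the second without PBS replicate 1 or RNY1-/- ProteinFx replicate 2 or 3, leaving 0 called by edgeR in each case.

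Regulators of OXPHOS genes and electron carriers had calls in both directions, and single genes among them and among related genes changed strongly. Of 13 regulators tested, 4 rose and 1 fell with RNY1+/+ EVFx, 7 and 1 with RNY1-/- EVFx, 4 and 2 with RNY1+/+ ProteinFx and 3 and 4 with RNY1-/- ProteinFx. The last 7 became 3 without PBS replicate 1 or RNY1-/- ProteinFx replicate 4, and 4 without PBS replicate 2 or RNY1-/- ProteinFx replicate 1 or 3. The coactivator gene Ppargc1b rose by 1.09, 1.14, 1.13 and 0.97 in the same order, and the lipid receptor gene Pparg fell by 2.19, 1.79, 1.80 and 0.98. Of electron carriers, uncoupling and exchange genes, 4 of 20 rose and 2 fell, 5 of 19 and 4, 5 of 20 and 4, and 3 of 20 and 2, with 8 called in the last comparison without PBS replicate 3. Gpd2, which feeds electrons from glycerol 3-phosphate into the chain, rose by 2.45, 2.40, 1.92 and 1.18, and the uncoupling protein gene Ucp2 fell by 1.28, 2.24, 2.30 and 1.42. Of 5 related genes outside the member rule, 4, 4, 3 and 3 rose. Acod1 was at a mean of 3.56 CPM (SD 1.53) in PBS and 934, 715, 615 and 139.98 CPM in the treated groups, log2 fold changes of 8.23, 7.92, 7.63 and 5.38. Sod2 rose by 4.58, 4.55, 4.17 and 2.54. AA467197, a paralog of Ndufa4, rose by 2.55 and 2.74 with the EVFx and by 5.46 and 4.24 with the ProteinFx, where Ndufa4 itself was not called.

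For mitochondrial quality control and dynamics, 7 of 17 rose and 4 fell with RNY1+/+ EVFx, 8 and 4 with RNY1-/- EVFx, 6 and 5 with RNY1+/+ ProteinFx and 6 and 3 with RNY1-/- ProteinFx. The 11 of RNY1+/+ EVFx became 7 without PBS replicate 4 or RNY1+/+ EVFx replicate 2, where 38.0% and 36.2% of all genes were called in place of 44.5%. The 9 of RNY1-/- ProteinFx became 3 without PBS replicate 1 or 2 or RNY1-/- ProteinFx replicate 4, and 5 without PBS replicate 4 or RNY1-/- ProteinFx replicate 3. Pink1, which marks damaged mitochondria for removal, was lower in the 4 comparisons, at -1.63, -1.94, -2.12 and -1.496. Between RNY1-/- and RNY1+/+ ProteinFx, where a single OXPHOS member was called, Acod1 had -2.23, Sod2 -1.61, AA467197 -1.21 and Gpd2 -0.73, and Pparg had 0.83, all called.

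Sequences around the start of nuclear members were searched for letters known from OXPHOS promoters. RefSeq windows of 300 bases (GRCm38.p6) were found for 65 of 81 nuclear symbols, 14 of them through an older symbol. Atp5f1a, Atp5mj, Atp5mk, Cox4i1, Cox5b-ps, Cox6a2, Cox6c, Cyc1, Ndufa2, Ndufb9, Ndufs1, Sdhc, Uqcrb, Uqcrc2 and Uqcrq were among those not matched. The letters of an NRF1 site, GCGCATGC or GCATGCGC on the other strand, were in 10 of the 65 members. That was 14.3% of the members' 70 windows, against 2.71% of all 32851 windows, taken whatever the level of their genes here. The letters of an ETS site, CCGGAAG or CTTCCGG, were in 16 members, 22.9% of member windows against 8.86% of all. The letters of a YY1 site, AAGATGGC or GCCATCTT, were in 10 members, 14.3% against 2.75%. At least 1 of these was present in 30 members, or 42.9% of their 70 windows, against 13.3% of all windows. Among members lower than PBS, 12 of 23 had a match with RNY1+/+ EVFx, 22 of 42 with RNY1-/- EVFx, 21 of 45 with RNY1+/+ ProteinFx and 17 of 31 with RNY1-/- ProteinFx. Among members not called it was 18 of 39, 5 of 13, 8 of 13 and 13 of 28, and among those higher 0 of 2, 3 of 9, 1 of 6 and 0 of 5. A match describes letters only and does not show that a protein binds.

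The 5 windows below were chosen after the values were seen, 2 for complex I subunits that fell with RNY1-/- EVFx and with each ProteinFx (Ndufb8, Ndufb7), 1 for a subunit whose value changed sign with length and GC trends removed (Cox6a1), 1 for the subunit that separated RNY1+/+ EVFx from other treatments (Sdhd) and 1 for the largest rise (Cox5a). Capitals mark matches to the letters above. Ndufb8 (chr19:44555393-44555692, minus strand) has 1 YY1 match, and Ndufb7 (chr8:83566508-83566807, plus strand) 1 ETS match. Cox6a1 (chr5:115348909-115349208, minus strand) has 1 ETS match and 2 overlapping NRF1 matches, 1 per strand. Sdhd (chr9:50603800-50604099, minus strand) has 1 ETS match, and the letters are not in the window of Cox5a (chr9:57520982-57521281, plus strand).
Ndufb8: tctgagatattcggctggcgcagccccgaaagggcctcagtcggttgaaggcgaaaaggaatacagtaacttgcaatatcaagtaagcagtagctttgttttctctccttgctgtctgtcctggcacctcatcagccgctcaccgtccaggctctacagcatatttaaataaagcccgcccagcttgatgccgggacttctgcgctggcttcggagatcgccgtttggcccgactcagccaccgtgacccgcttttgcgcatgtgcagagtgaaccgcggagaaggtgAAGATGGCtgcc
Ndufb7: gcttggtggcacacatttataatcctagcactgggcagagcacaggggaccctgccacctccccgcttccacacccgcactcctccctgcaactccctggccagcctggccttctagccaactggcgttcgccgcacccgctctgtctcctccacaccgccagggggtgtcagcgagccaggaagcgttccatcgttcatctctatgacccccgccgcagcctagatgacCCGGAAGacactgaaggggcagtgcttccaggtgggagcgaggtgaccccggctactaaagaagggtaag
Cox6a1: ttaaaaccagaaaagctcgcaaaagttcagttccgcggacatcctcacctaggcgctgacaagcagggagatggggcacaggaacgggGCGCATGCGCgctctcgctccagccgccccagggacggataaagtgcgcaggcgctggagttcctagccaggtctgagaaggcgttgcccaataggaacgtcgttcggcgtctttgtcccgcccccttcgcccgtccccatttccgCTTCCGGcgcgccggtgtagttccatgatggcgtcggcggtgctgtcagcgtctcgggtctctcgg
Sdhd: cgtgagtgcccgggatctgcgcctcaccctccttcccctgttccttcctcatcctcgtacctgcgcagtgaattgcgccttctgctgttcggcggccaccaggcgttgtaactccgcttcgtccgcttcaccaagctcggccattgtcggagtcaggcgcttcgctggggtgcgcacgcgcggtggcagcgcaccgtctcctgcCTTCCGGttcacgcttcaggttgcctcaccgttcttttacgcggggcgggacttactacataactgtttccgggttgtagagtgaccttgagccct
Cox5a: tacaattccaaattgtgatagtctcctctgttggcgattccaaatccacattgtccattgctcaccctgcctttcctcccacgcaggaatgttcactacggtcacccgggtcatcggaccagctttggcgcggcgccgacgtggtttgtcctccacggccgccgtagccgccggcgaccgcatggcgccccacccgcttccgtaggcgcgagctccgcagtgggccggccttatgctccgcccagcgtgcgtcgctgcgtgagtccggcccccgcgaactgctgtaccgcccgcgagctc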

How the data were processed

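Per the labels, the authors trimmed 3′ RNA reads with fastp 0.24.0, aligned them to GRCm39 with STAR 2.7.11, removed duplicates by molecular identifier and counted with featureCounts (Subread 2.1.1). The deposited values of the authors are expected counts and CPM, and each CPM was the count over the library total. Counts of the 20 libraries were rounded and fitted per comparison in edgeR 4.0.16 (R 4.3.3, limma 3.58.1; quasi-likelihood, TMM) for genes passing filterByExpr with a mean of 3 CPM or more. A call is a Benjamini-Hochberg adjusted p under 0.05, and the interaction used 16 libraries. SE is the size of the log2 fold change over the root of F. Totals of 2510005 to 8277366 counts limit precision for members near 3 CPM. Alternatives were DESeq2 1.42.0, library totals, scaling without mitochondrial genes, other filters, a stricter call, all 20 libraries together, thinning to 2510005 counts, unrounded counts, a replicate block, length and GC trends (spline, 4 degrees of freedom), single pairs of replicates, protein-coding denominators and leaving out each library. The fit was also run on simulated data, and no result given here rests on that run. Members and lists were chosen with earlier results of these data known. Named genes were the mitochondrial members, core subunits, isoform pairs, the 3 largest called rises and falls per comparison (mean of 10 CPM or more) and the 3 largest per list; other named genes were chosen after their values were seen. Summaries used Python 3.11.15, numpy 2.4.6, pandas 2.3.3, scipy 1.17.1 and matplotlib 3.10.9.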

Additional observations from a re-analysis of the deposited data

Results flagged for a closer look

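Of 295 groups of 4 libraries examined, 8 held a library far from the other 3 by Dixon's ratio, where chance gives about 1 in 20. These were total counts of RNY1+/+ EVFx replicate 3 (4994483), Ndufa4 in RNY1+/+ EVFx replicate 3 (723.8 CPM), Ndufb1 in PBS replicate 3 (409.9 CPM) and in RNY1+/+ EVFx replicate 4 (289.9 CPM), Ndufs1 in PBS replicate 3 (49.6 CPM), Ndufs3 in RNY1+/+ EVFx replicate 4 (35.9 CPM), Uqcrc1 in RNY1+/+ ProteinFx replicate 3 (27.9 CPM) and mt-Nd6 in RNY1-/- EVFx replicate 3 (50.9 CPM).

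The genotype effect differed between ProteinFx and EVFx in edgeR's interaction test for 43 nuclear members with a higher value in ProteinFx and 5 with a lower one. Of all genes, 16.8% were higher and 16.2% lower. Nuclear members called became 22 with length and GC trends removed, 22 with all 20 libraries in 1 fit and 29 with thinned counts. Replicates 3 and 4 of every group gave 0. In these fits 21.5%, 19.5%, 17.8% and 0.749% of all genes were called. Among the named members, the interaction was 0.38 for Atp5f1a, 0.48 for Atp5f1b, 0.53 for Atp5if1, 1.08 for Atp5mc1, 1.20 for Atp5mc2, -0.59 for Atp5mk, 1.19 for Atp5po (ENSMUSG00000116933), 0.78 for Cox4i1, 0.44 for Cox5b, 0.41 for Cox6a1, 0.50 for Cox6b1, 0.99 for Cox7a2l, 0.98 for Cox8a and 0.90 for Cyc1. It was -0.45 for Ndufb1, 1.12 for Ndufb10, 0.95 for Ndufb11, 0.93 for Ndufb7, 0.71 for Ndufb8, 0.94 for Ndufs7, 0.80 for Ndufs8, 0.87 for Ndufv1, 0.70 for Ndufv2, 1.13 for Ndufv3, 0.46 for Sdhc, -0.82 for Sdhd and 0.95 for Uqcrc1. The calls of Ndufb1, Sdhd and Cox6a1 were each lost without any 1 of 8 or more libraries, and Cox5b and Cox6a1 changed sign with length and GC trends removed, at -0.02 and -0.15.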

How the results depend on the processing

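Most results kept their side of the threshold and, where called, their direction. The direction of named members without a call in the edgeR fit with TMM scaling was not followed. Of values of named members under settings other than leaving out a library, 5136 did so, 314 gained a call and 390 lost one. Of those called in that fit, 61 changed sign. Leaving out 1 library, 3528 stayed, 65 gained and 271 lost a call. For nuclear counts under other settings, 83 stayed within 1.5 times, 11 were larger and 24 smaller, and for mitochondrial counts 87, 16 and 11, with 4 opposite. For counts in lists, 779, 88 and 123 did so. The cause of the changes below was not tested, except that smaller groups have fewer libraries and the stricter call is narrower by construction. Library totals gave 50 nuclear members for RNY1+/+ EVFx against PBS and 2 for RNY1-/- against RNY1+/+ ProteinFx, with 47.7% and 6.32% of all genes called. For the latter, DESeq2 gave 2 and no filter 5, and no filter gave 1 mitochondrial member for the interaction. Of all genes, 6.70%, 3.48% and 11.5% were called in these fits. Thinned counts gave 29 nuclear members for the interaction, with 17.8% of all genes called. All 20 libraries in 1 fit gave 40 nuclear and 0 mitochondrial members for RNY1-/- against RNY1+/+ EVFx, 4 mitochondrial for RNY1+/+ ProteinFx against RNY1+/+ EVFx and 22 nuclear for the interaction. The shares of all genes called were 38.0%, 56.0% and 19.5%. The stricter call gave 3, 14, 17 and 8 nuclear and 3, 2, 1 and 0 mitochondrial members against PBS (RNY1+/+ EVFx, RNY1-/- EVFx, RNY1+/+ ProteinFx, RNY1-/- ProteinFx). It gave 0 and 0 for RNY1-/- against RNY1+/+ EVFx, 0 nuclear for RNY1-/- against RNY1+/+ ProteinFx, 1 and 0 for RNY1+/+ ProteinFx against RNY1+/+ EVFx, and 5 nuclear for the interaction. The replicate block gave 62 nuclear and 10 mitochondrial members for RNY1-/- ProteinFx against PBS and 1 mitochondrial for the interaction, with 60.9% and 33.2% of all genes called.

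RNY1-/- ProteinFx replicates 1 and 2 alone gave 5 nuclear members and a difference of medians (mitochondrial minus nuclear) of -0.48 against PBS, 38 nuclear, 2 mitochondrial and -0.56 against RNY1+/+ ProteinFx, and 6 mitochondrial and -1.19 for the interaction. Its replicates 3 and 4 alone gave 3 mitochondrial and 0.52, 2 nuclear, 4 mitochondrial and 0.28, and 6 nuclear and -0.18. With replicates 1 and 2 alone, 14.4%, 27.7% and 54.3% of all genes were called in the same order of comparisons. With replicates 3 and 4 alone the shares were 39.6%, 8.35% and 3.36%. Pairs of replicates from every group were compared as a choice made after seeing the data. Replicates 1 and 2 gave 64 nuclear members for RNY1+/+ EVFx against PBS, 66 nuclear and 10 mitochondrial for RNY1-/- ProteinFx against PBS, 35 nuclear for RNY1-/- against RNY1+/+ ProteinFx, and 6 mitochondrial and -0.96 for the interaction. Of all genes, 63.4%, 59.5%, 27.6% and 46.7% were called in these fits, in the same order. Replicates 3 and 4 gave 6, 21, 18 and 24 nuclear members against PBS in the order above, 3 and 2 mitochondrial for the ProteinFx groups, 35 nuclear for RNY1+/+ ProteinFx against RNY1+/+ EVFx, and 0 nuclear and -0.33 for the interaction. Against PBS, 24.0%, 28.0%, 22.8% and 21.8% of all genes were called in these fits. The shares were 41.6% between the RNY1+/+ fractions and 0.749% for the interaction.

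With length and GC trends removed, 11, 12 and 13 mitochondrial members were called against PBS with RNY1-/- EVFx, RNY1+/+ ProteinFx and RNY1-/- ProteinFx, with differences of -0.53, -0.61 and -0.75. RNY1-/- against RNY1+/+ EVFx had 37 nuclear and 3 mitochondrial members, the latter opposite, and -0.053. RNY1-/- against RNY1+/+ ProteinFx had 2 nuclear, RNY1+/+ ProteinFx against RNY1+/+ EVFx 36 nuclear, 4 mitochondrial (opposite) and 0.012, and the interaction 22 nuclear, 1 mitochondrial and -0.0060. With the block as well, these were 12, 11 and 13 and -0.53, -0.63 and -0.75 against PBS, 37, 5 (opposite) and -0.050 between EVFx genotypes, 6 (opposite) and -0.0039 between RNY1+/+ fractions, and 22, 1 and -0.00072 for the interaction.

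Values that changed sign with trends removed, and with the block as well, follow. Members are listed only if called under TMM scaling, and medians only if larger in size than the SD between replicates. Other changes of sign are left out, such as the mitochondrial median of the interaction, at -0.20 and, with trends removed, 0.21. Against PBS, mt-Atp8 had 0.18 and 0.17 with RNY1+/+ EVFx. With RNY1-/- EVFx, Cox5b had 0.021 and 0.024, Cox6a1 0.18 and 0.19, and Ndufs7 0.0016 with the block only. With RNY1+/+ ProteinFx, Cox5b had 0.092 and 0.089, Cox6a1 0.14 and 0.14, and Ndufs7 0.029 and 0.040. With RNY1-/- ProteinFx, Cox6a1 had 0.20 and 0.21. For RNY1-/- against RNY1+/+ EVFx, the mitochondrial median had -0.091 and -0.086, Atp5if1 0.033 and 0.033, Cox5b 0.14 and 0.14, Cox6a1 0.23 and 0.23, Cox7a2 -0.011 and -0.0092, Sdhc 0.074 and 0.070, mt-Atp6 -0.064 and -0.059, mt-Nd1 -0.017 and -0.014, mt-Nd2 -0.091 and -0.086, mt-Nd4 -0.043 and -0.044, and mt-Nd5 -0.075 and -0.074. For RNY1+/+ ProteinFx against RNY1+/+ EVFx, the mitochondrial median had -0.098 and -0.11, Cox5b 0.22 and 0.21, Cox6a1 0.20 and 0.20, Ndufb8 0.048 and 0.045, Sdhc 0.13 and 0.13, mt-Atp6 -0.098 and -0.10, mt-Co3 -0.053 and -0.060, mt-Cytb -0.0039 and -0.012, mt-Nd1 -0.056 and -0.076, mt-Nd2 -0.086 and -0.098, mt-Nd3 -0.31 and -0.34, and mt-Nd4 -0.094 and -0.11. For the interaction, Cox5b had -0.022 and -0.023, and Cox6a1 -0.15 and -0.15. As shares of protein-coding counts, nuclear members held 1.54%, 1.25%, 1.22%, 1.16% and 1.33% in PBS, RNY1+/+ EVFx, RNY1-/- EVFx, RNY1+/+ ProteinFx and RNY1-/- ProteinFx, and mitochondrial members 1.41% with RNY1-/- EVFx.

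Leaving out each library in turn, nuclear counts ranged from 20 to 56, 51 to 70, 48 to 72 and 18 to 58 against PBS in the order above, from 49 to 63 for RNY1-/- against RNY1+/+ EVFx, 0 to 3 for RNY1-/- against RNY1+/+ ProteinFx, 52 to 57 for RNY1+/+ ProteinFx against RNY1+/+ EVFx and 27 to 58 for the interaction. Mitochondrial counts ranged from 10 to 12, 6 to 8, 4 to 8 and 4 to 5 against PBS and from 4 to 8, 0 to 0, 5 to 8 and 0 to 0 in the others. The share of all genes called ranged from 36.2% to 56.2%, 50.2% to 70.4%, 45.0% to 68.7% and 22.3% to 52.9% against PBS. In the others it ranged from 42.6% to 51.6%, 2.22% to 8.41%, 57.3% to 62.6% and 18.4% to 44.4%, in the same order. The difference of medians ranged from -0.64 to -0.30, -0.17 to 0.21, -0.14 to 0.30 and -0.24 to 0.24 against PBS, and from 0.43 to 0.72, -0.23 to 0.02, 0.59 to 0.74 and -0.82 to -0.45 in the others. RNY1-/- against RNY1+/+ ProteinFx had 0 nuclear members without RNY1+/+ ProteinFx replicate 2, 3 or 4 or RNY1-/- ProteinFx replicate 1 or 2, and 3 without RNY1-/- ProteinFx replicate 3. Depth was smallest in RNY1-/- ProteinFx replicate 3, at 2510005 counts.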
